A study of Mus musculus with 12 samples.

Results

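The genes described here are 36 genes of DNA replication and mitosis, taken by symbol from a table of 46078 mouse gene IDs. All 36 symbols were found, and all 36 had a mean of at least 10 normalized counts over the 12 libraries, the level above which 17496 genes were tested. They were split into 11 replication genes (Mcm2 to Mcm7, Pcna, Tyms, Rrm1, Rrm2 and Cdc45), 23 mitosis genes, and Hells and Gins2. The rule that named the replication genes did not list Hells or Gins2, so they were kept apart from both groups. Hippocampal RNA was taken from C57BL/6 mice on postnatal day 25. Mutants were heterozygous for the frameshift allele CHD8 Asn2373LysfsX2, and controls were wild type. CHD8 is a chromatin remodeller. The groups were mutant males, wild-type males, mutant females and wild-type females, with 3 libraries each. The labels name no batch. Nothing in them ties each library to an animal of its own, and the p-values below therefore rest on a spread between libraries that may be technical in part.

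A cell that divides first loads the Mcm2 to Mcm7 helicase at replication origins and activates it with Cdc45 and the GINS complex. It then copies its DNA behind the clamp Pcna with nucleotides made by ribonucleotide reductase and thymidylate synthase. Mitosis follows under the kinase Cdk1 with its cyclins, the Aurora and Polo-like kinases, the spindle motors and the checkpoint that watches the kinetochores. In the young hippocampus dividing cells are few, mainly progenitors of the dentate gyrus and glial precursors, among mostly postmitotic neurons. Because the RNA was from bulk tissue, fewer dividing cells and less RNA per dividing cell cannot be told apart.

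The promoters of many cell cycle genes hold short shared elements, so sequences are shown for genes that the results below turn on and for typical mitotic genes. The CHR element was searched as TTTGAA or TTCGAA, the CCAAT box as CCAAT, and the E2F element as TTTGGCG and also as TTTCCCG, besides the forms TTTGCCG and then TTTCGCG, with both strands read for each. Windows ran from 250 bases before to 50 bases after each RefSeq transcription start (GRCm38.p6). Windows were available for 29 of the 36 genes, 30 windows in all. The lines below give 120 bases before to 30 bases after the start, 5′ to 3′ on the gene's strand, with capitals marking each whole match. A match is a description of letters and not a measured binding site.
Ccnb2, chr9:70421525-70421674, minus strand: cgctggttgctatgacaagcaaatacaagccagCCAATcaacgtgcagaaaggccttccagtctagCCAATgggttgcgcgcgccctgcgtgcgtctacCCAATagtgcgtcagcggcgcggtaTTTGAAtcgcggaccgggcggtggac
Cdk1, chr10:69352883-69353032, minus strand: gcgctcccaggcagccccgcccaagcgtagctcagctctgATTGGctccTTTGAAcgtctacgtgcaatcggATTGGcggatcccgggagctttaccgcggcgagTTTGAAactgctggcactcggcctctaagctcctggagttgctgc
Kif11, chr19:37376262-37376411, plus strand: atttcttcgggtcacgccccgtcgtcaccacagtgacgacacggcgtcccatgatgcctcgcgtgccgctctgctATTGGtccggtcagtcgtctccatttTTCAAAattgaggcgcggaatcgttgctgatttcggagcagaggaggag
Bub1, chr2:127831830-127831979, minus strand: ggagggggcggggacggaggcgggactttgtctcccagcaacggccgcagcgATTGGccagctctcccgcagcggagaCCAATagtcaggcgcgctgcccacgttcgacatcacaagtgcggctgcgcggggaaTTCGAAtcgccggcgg
Hjurp, chr1:88277550-88277699, minus strand: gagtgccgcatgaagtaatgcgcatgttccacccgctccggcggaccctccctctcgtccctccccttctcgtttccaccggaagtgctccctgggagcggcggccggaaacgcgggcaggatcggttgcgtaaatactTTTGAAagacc
Mcm2, chr6:88898751-88898900, minus strand: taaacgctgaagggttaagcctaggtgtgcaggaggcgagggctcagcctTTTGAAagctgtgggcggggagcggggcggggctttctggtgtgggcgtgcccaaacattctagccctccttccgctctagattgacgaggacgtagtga
Mcm6, chr1:128359676-128359825, minus strand: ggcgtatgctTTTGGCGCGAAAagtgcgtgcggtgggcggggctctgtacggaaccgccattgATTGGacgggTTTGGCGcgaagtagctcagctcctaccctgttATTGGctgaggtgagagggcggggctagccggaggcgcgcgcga
Cdc45, chr16:18811943-18812092, minus strand: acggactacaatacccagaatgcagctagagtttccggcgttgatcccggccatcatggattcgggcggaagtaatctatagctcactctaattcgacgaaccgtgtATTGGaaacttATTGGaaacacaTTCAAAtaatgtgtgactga

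The mitosis genes shown carried CHR letters close to the start. Counted from the start, with negative positions before it, the first base of a CHR match lay at 5 in Ccnb2, at -71 and -15 in Cdk1, at -19 in Kif11, at 15 in Bub1 and at 20 in Hjurp. In Ccnb2 the 3 CCAAT boxes lay at -87, -54 and -21. Of the replication genes shown, Mcm2 held a CHR match at -70. Mcm6, a subunit of the replicative helicase, held E2F letters at -110, -105 and -47, the first 2 of them overlapping. Cdc45 held a CHR match at 11 and CCAAT boxes at -13 and -2. Outside the printed bases lay E2F letters at -131 in Cdk1 and CHR matches at -167 in Ccnb2 and -240 in Cdc45.

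CHR letters occurred in 14 of 18 mitosis windows (77.8%) and in 3 of 11 replication windows (27.3%), against 14% of the 15873 windows of all tested genes. CCAAT boxes occurred in 16 of 18 mitosis windows (88.9%) and in 10 of 11 replication windows (90.9%), against 37.2% of the windows of all tested genes. E2F letters were present in 4 mitosis windows (22.2%) and 4 replication windows (36.4%), against 9.95% of the windows of all tested genes. Each of the 14 mitosis windows with CHR letters also held a CCAAT box, a combination found in 5.68% of the windows of tested genes. No window was matched for Ccna2, Mcm4, Pbk, Tpx2, Aurkb, Gins2 and Kif20a. No test was made on these shares.

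**Figure D1:**
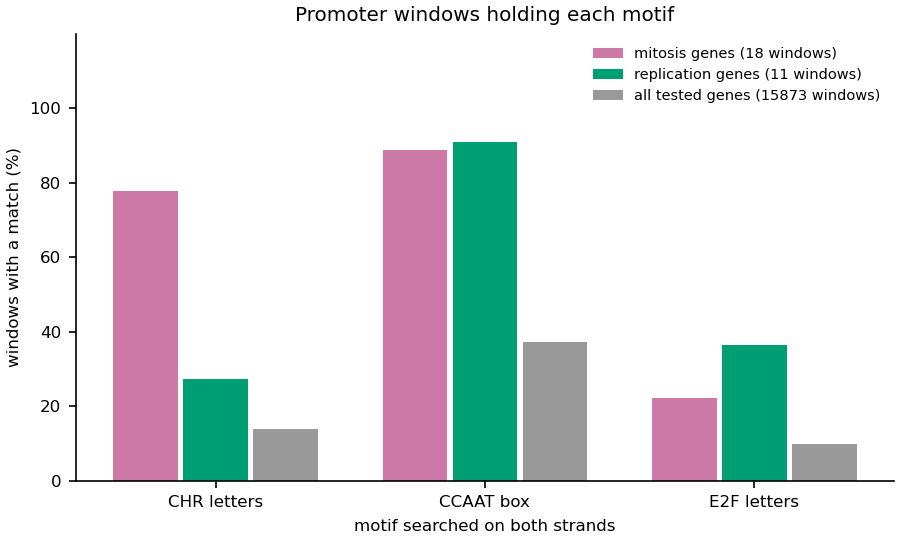
Share of promoter windows (y axis, percent) that held at least 1 match to each motif (x axis) in mitosis genes, replication genes and all tested genes. CHR letters stood in 77.8% of mitosis windows, 27.3% of replication windows and 14% of the windows of tested genes.

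Facts on the whole data set bear on the values below. Recovered reads, the whole reads behind the normalized counts, numbered 23721482 to 24654408 in mutant libraries and 26912998 to 33327314 in wild-type libraries, so depth and genotype cannot be told apart. Chd8 itself was 14.4% lower in mutants (log2 difference -0.22, SE 0.03, adjusted p = 0.0289, limma), with 2383 to 2513 normalized counts in mutant libraries and 2751 to 2994 in wild-type libraries. It was the only gene of 17496 that passed in that comparison, and 10 of the 12 fits that left out 1 library lost its call, with adjusted p up to 0.161. In 3 libraries, mutant male 2, mutant male 3 and wild-type female 1, the summed level of 12 choroid plexus markers was 6473 to 7314 normalized counts, against 77751 to 260025 in the other 9. The genotype comparison was therefore also made without these 3 libraries, which leaves 1 mutant male whose spread is taken from the other groups. The part of this tissue in any result was not tested. Hippocampal neuron markers were present in every library, with summed levels of 77564 to 82902 normalized counts in mutants and 73716 to 80825 in wild type.

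Per kilobase of merged exon, most of the 36 genes were expressed at a low level, and 7 of the 8 highest levels were those of replication genes. Pcna, the sliding clamp of the replication fork, was highest at a mean of 375 normalized counts per kilobase, at percentile 79.6 of all tested genes. Hjurp, the chaperone that brings the centromeric histone CENP-A to centromeres, came next at 236 normalized counts per kilobase, at percentile 68.8. The helicase subunits followed at 122 for Mcm6, 89.3 for Mcm7 and 84.1 for Mcm4 on the same scale. The ranges over libraries did not overlap between Pcna (354 to 394), Hjurp (211 to 301) and Mcm6 (109 to 142), whereas those of Mcm7 (77.6 to 96.9) and Mcm4 (75.4 to 97.8) did.

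Further down the order came Rrm1, the large subunit of ribonucleotide reductase, at 47.5, thymidylate synthase Tyms at 38.7, and Mcm5 at 32.8 normalized counts per kilobase. Hjurp was the only mitosis gene among the 8 highest. The proliferation marker Mki67 stood at 24.4 and Top2a, the topoisomerase that disentangles sister chromatids, at 13.2 normalized counts per kilobase. The lowest levels were those of the cyclin Ccnb1 (5.86), the kinetochore protein Cenpf (5.42), Cdk1 (5.26), Aurora B kinase Aurkb (4.70) and the checkpoint kinase Bub1 (3.89), the last at percentile 2.16 of all tested genes. Below Tyms, the range over libraries of each gene overlapped those of its neighbours in the order.

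**Figure D2:**
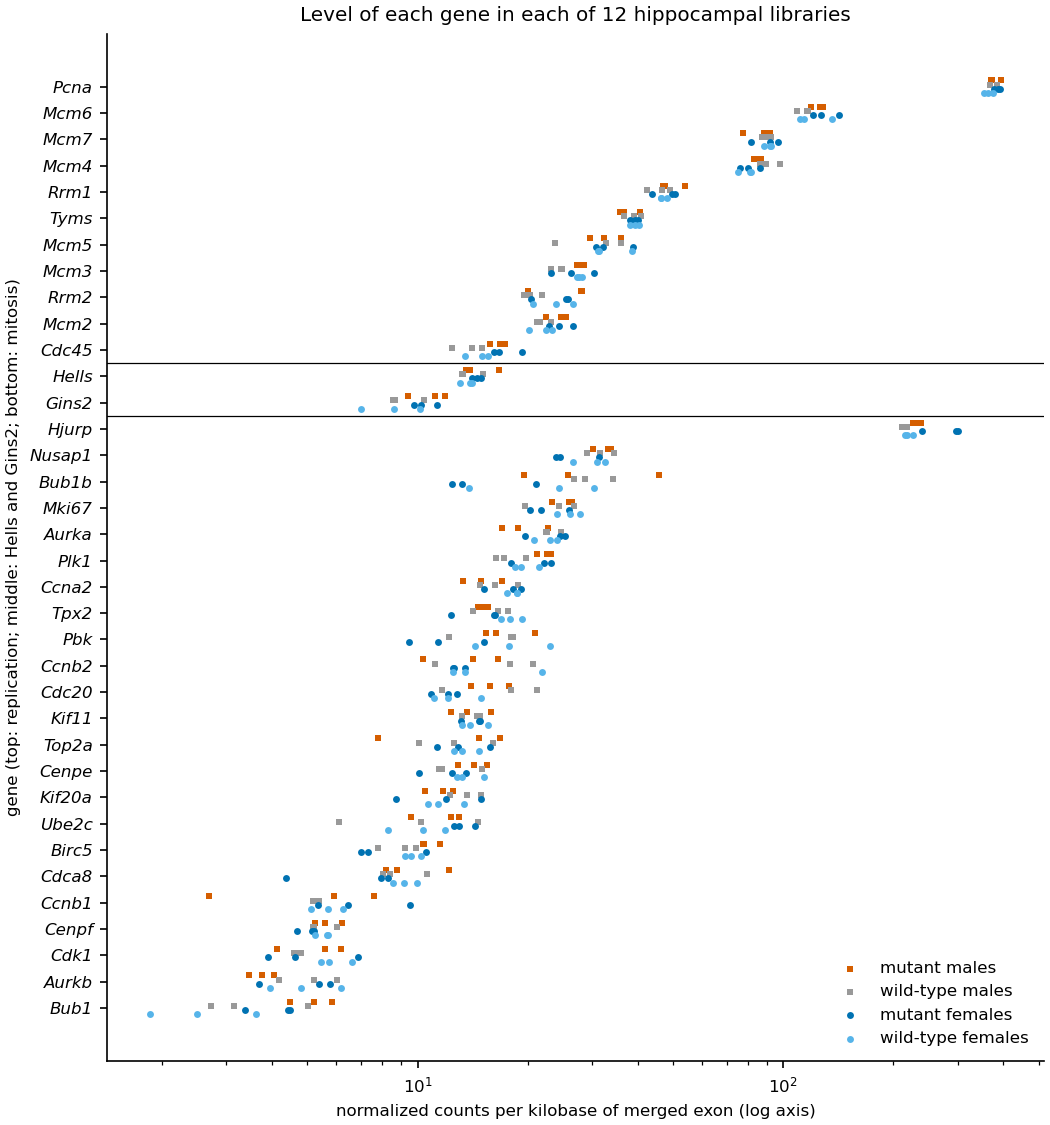
Level of each of the 36 genes in each library, in normalized counts per kilobase of merged exon on a log axis, with replication genes at the top, Hells and Gins2 in the middle and mitosis genes at the bottom. Pcna (mean 375) and Hjurp (mean 236) lie to the right of all other genes, and Bub1 (mean 3.89) is lowest.

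Some of these levels are uncertain because the library kit does not keep the strand and exons of 8 members overlap those of other expressed genes. Gins2 shared 2758 exon bases (67.3% of its own) with Gse1, whose mean was 1669 normalized counts, against 40.0 for Gins2. Kif20a, a kinesin of cytokinesis, shared 1271 bases (29.3%) with Cdc23. Smaller overlaps were 510 bases of Ccna2 with Exosc9, 321 bases of Mcm7 with Ap4m1 and 64 with Cops6, 232 of Cdca8 with 9930104L06Rik, 209 of Cdc45 with Ufd1, 172 of Nusap1 with Oip5 and 53 of Cdc20 with Elovl1. The pseudogene Ccnb2-ps had a mean of 102 normalized counts, above the 22.6 of Ccnb2 itself, so the authors' counting could have split reads between gene and pseudogene.

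The first comparison set mutants against wild type with the sexes averaged. No member passed at an adjusted p below 0.05 (limma), against 0.00572% of all tested genes. At an unadjusted p below 0.05 the count was 3 of 36 members (8.33%), against 8.87% of all tested genes, so the members' share was near that of the whole table. DESeq2 gave an adjusted p to 16 members and called 1 of them (Hjurp) below 0.05, against 75 of 12747 genes with an adjusted p (0.588%). The 3 members were Hjurp, Bub1 and Cdc45, and each was higher in mutants, against 4.4% of all tested genes that were higher at this threshold. No member was lower at it, against 4.47%. Without the 3 libraries low in choroid plexus markers, 1 member (Hjurp) had an unadjusted p below 0.05, against 8.56% of all tested genes. In that fit 7 of the 36 log2 differences changed sign (Bub1b, Ccnb2, Top2a, Cdk1, Tyms, Birc5 and Kif11) and 12 others moved by more than 1.5 times, and no member passed (limma).

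Replication genes had a median log2 difference of 0.07 (range -0.04 to 0.25), with 8 of 11 above 0, and mitosis genes had a median of -0.05 (range -0.29 to 0.57), with 6 of 23 above 0. Over all tested genes, 49.9% had a log2 difference above 0. Fits that left out 1 library gave medians of 0.04 to 0.08 for replication genes and -0.09 to -0.04 for mitosis genes. Without the 3 libraries low in choroid plexus markers the medians were 0.098 for replication genes and -0.019 for mitosis genes, the latter nearer 0. The precision differed between the groups, since the 95% interval of a single gene had a median half-width of 0.13 for replication genes, 0.30 for mitosis genes and 0.14 for all tested genes (log2). Mean log2 levels over the 11 replication genes were 7.77 to 7.89 in mutant libraries and 7.71 to 7.80 in wild-type libraries. For the 23 mitosis genes they were 5.73 to 6.05 in mutant libraries and 5.85 to 5.99 in wild-type libraries. The genotypes overlapped on both scores.

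**Figure D3:**
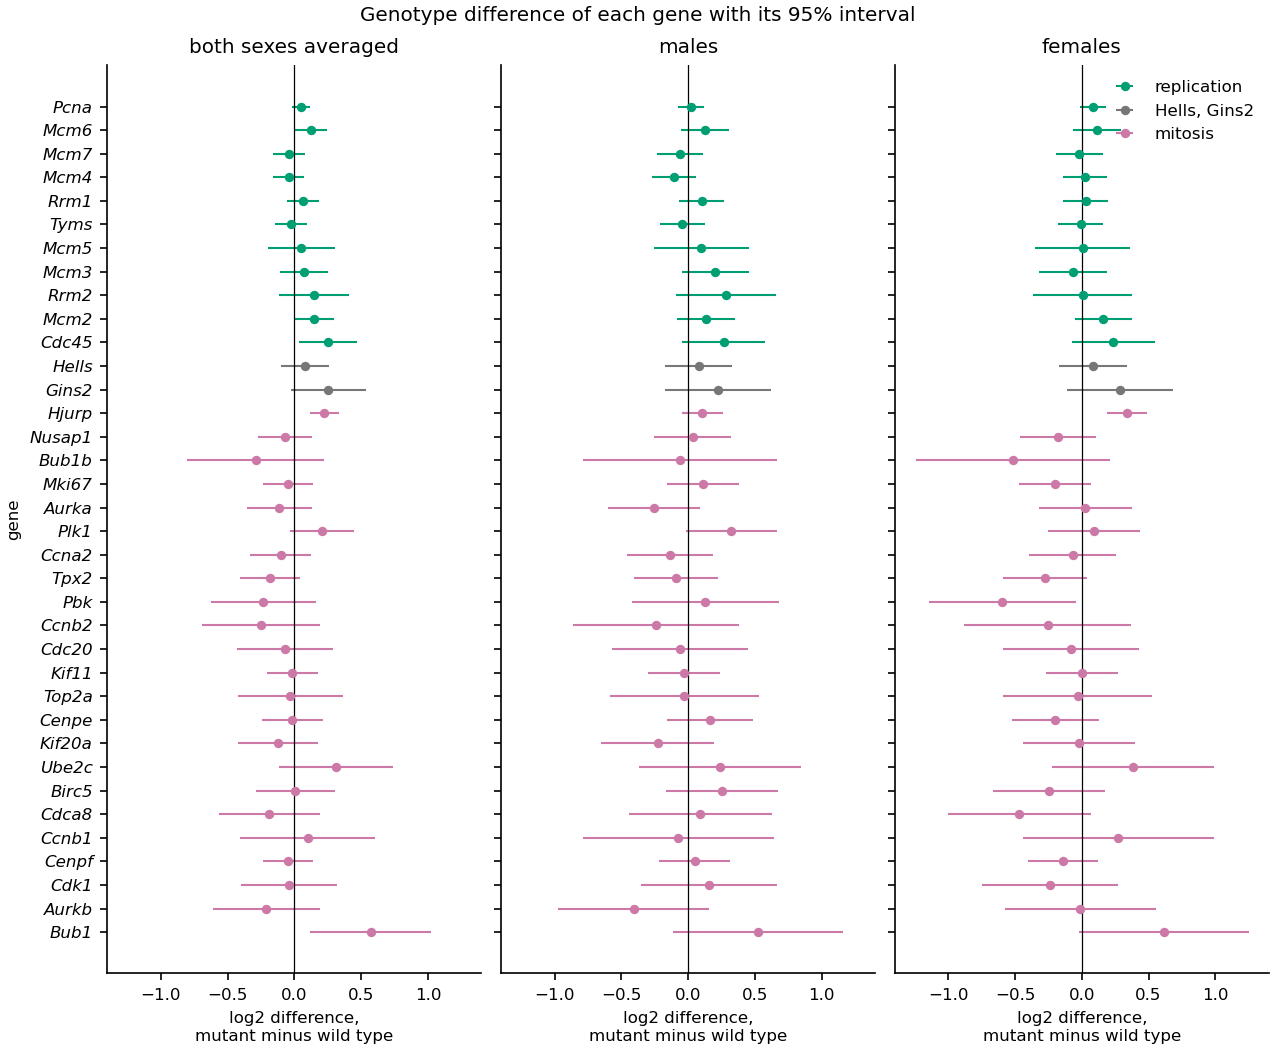
Log2 difference, mutant minus wild type, of each of the 36 genes (points) with its 95% interval (bars) from limma, for both sexes averaged, males and females. Most intervals cover 0, and in the average those of Hjurp (0.22), Bub1 (0.57) and Cdc45 (0.25) do not.

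Among the factors that load and run the helicase, Cdc45 was the only member whose libraries did not overlap between genotypes in the average, against 0.303% of all tested genes that were higher without overlap. No member was lower without overlap, against 0.24%. Cdc45 had 60.8, 59.0 and 55.4 normalized counts among mutant males, 49.4, 43.6 and 52.5 in wild-type males, 67.7, 58.6 and 56.6 in mutant females, and 52.7, 54.7 and 47.3 in wild-type females. Every mutant library lay above every wild-type library, though these are low counts of 46 to 65 reads. The log2 difference was 0.25 ± 0.10 (SE, n = 6 each; 95% interval 0.03 to 0.47), with an adjusted p of 0.491 (limma) and an exact two-sided permutation p of 0.005 for this gene alone. That is the smallest value the 400 arrangements within sex allow. This test was run only on members with an unadjusted p below 0.05 in the same values. Ufd1, with which Cdc45 shares exon bases, had a log2 difference of -0.04 (adjusted p = 0.728, limma).

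No helicase subunit passed. Mcm2 had 177, 171 and 156 normalized counts among mutant males, 161, 148 and 150.1 in wild-type males, 159, 185 and 169.7 in mutant females, and 141, 162 and 156 in wild-type females, a log2 difference of 0.15 (adjusted p = 0.569, limma). Mcm6 had 598, 587 and 556 among mutant males, 542, 507 and 544 in wild-type males, 564, 662 and 593 in mutant females, and 519, 633 and 530.3 in wild-type females. Its log2 difference was 0.12, with the same adjusted p of 0.569 (limma), and the females overlapped. For Mcm3, Mcm4, Mcm5 and Mcm7 the log2 differences were 0.07, -0.04, 0.05 and -0.04. Gins2 gave 0.26 (adjusted p = 0.588, limma), or 0.17 without the 3 libraries low in choroid plexus markers, with the overlap with Gse1 named above, and Gse1 itself gave 0.01.

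At the fork and in nucleotide supply the intervals differed in width, narrowest for Pcna and widest for Rrm2. Pcna had 946, 893 and 888 normalized counts among mutant males, 882, 883 and 921 in wild-type males, 938, 902 and 930.0 in mutant females, and 849, 869 and 897 in wild-type females. These values gave a difference of 3.69% with a 95% interval of -1.04 to 8.66% (adjusted p = 0.658, limma). Tyms gave a log2 difference of -0.03 (95% interval -0.14 to 0.09), Rrm1 one of 0.07 (-0.05 to 0.18), and Rrm2, the small subunit of ribonucleotide reductase, one of 0.14 (-0.12 to 0.41), or 0.26 without the 3 libraries low in choroid plexus markers. Hells, a remodeller that helps to maintain DNA methylation, gave 0.08 (-0.10 to 0.26), or 0.16 without those libraries.

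Of the 23 mitosis genes, Hjurp had the smallest p. It had 1882, 1987 and 1929 normalized counts among mutant males, 1812, 1761 and 1809 in wild-type males, 2468, 1995 and 2508 in mutant females, and 1883, 1810.3 and 1789 in wild-type females. Mutant females 1 and 3 stood above all other libraries, and mutant male 1 alone fell within the wild-type range, just below wild-type female 1. The average log2 difference was 0.22 ± 0.05 (SE, n = 6 each; 95% interval 0.12 to 0.33), or 16.7% higher in mutants. Its adjusted p was 0.285 in limma, 0.270 in edgeR and 0.0117 in DESeq2, and the exact two-sided permutation p for this gene alone was 0.005. Without mutant female 2 the adjusted p was 0.00998 (log2 difference 0.28, limma), and over all fits that left out 1 library it lay between 0.00998 and 0.623. Without the 3 libraries low in choroid plexus markers it was 0.343, at a log2 difference of 0.21. No exons of another annotated gene overlapped those of Hjurp.

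The spindle checkpoint kinase Bub1 gave the largest log2 difference among the 36 genes, from the lowest level per kilobase. It had 25.4, 22.7 and 19.6 normalized counts among mutant males, 11.9, 21.8 and 13.7 in wild-type males, 14.7, 19.5 and 19.2 in mutant females, and 10.9, 8.08 and 15.8 in wild-type females. Both sexes overlapped between genotypes, and the libraries held 9 to 23 reads of it. The difference was 0.57 ± 0.21 (SE, n = 6 each; 95% interval 0.12 to 1.02), with an adjusted p of 0.441 (limma) and an exact permutation p of 0.025. Its checkpoint partner Bub1b had 196, 110.1 and 83.7 among mutant males, 123, 115 and 146 in wild-type males, 56.4, 90.1 and 53.2 in mutant females, and 104, 130.1 and 58.9 in wild-type females. That gave -0.29 (95% interval -0.80 to 0.22), the lowest value of the 36 with all libraries. Without the 3 libraries low in choroid plexus markers it was 0.09, above 0, and fits that left out 1 library gave -0.46 to -0.16.

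Mki67 and Top2a, widely used markers of dividing cells, did not pass. Mki67 had 266, 261 and 235 normalized counts among mutant males, 198, 245 and 269 in wild-type males, 204, 260.5 and 218 in mutant females, and 242, 262 and 279.7 in wild-type females. The libraries of each sex overlapped, and the 95% interval of the averaged log2 difference ran from -0.24 to 0.14 around -0.05 (adjusted p = 0.906, limma). Top2a gave -0.03 (95% interval -0.42 to 0.36), Ccnb1 0.10 (-0.40 to 0.61) and Cdk1 -0.04 (-0.40 to 0.32). Without the 3 libraries low in choroid plexus markers, Top2a gave 0.18, Ccnb1 0.43 and Cdk1 0.05. Ccnb2 gave -0.25, or 0.02 without those libraries, with the pseudogene named above, and Ccna2, the cyclin of S phase and early mitosis, -0.10.

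The other mitosis genes lay within the same span of log2 differences. Of the kinases, Plk1 gave 0.21 (95% interval -0.04 to 0.45), Aurka -0.11, Aurkb -0.21 and Pbk -0.23. Ube2c and Cdc20, which serve the ubiquitin ligase that ends mitosis, gave 0.31 (95% interval -0.12 to 0.74) and -0.07. Cdca8 and Birc5, partners of Aurora B in the chromosomal passenger complex, gave -0.19 and 0.01. For the spindle proteins, Tpx2 gave -0.18, Kif20a -0.12, Nusap1 -0.07 and Kif11 -0.01, and for the kinetochore proteins Cenpf gave -0.05 and Cenpe -0.02.

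**Figure D4:**
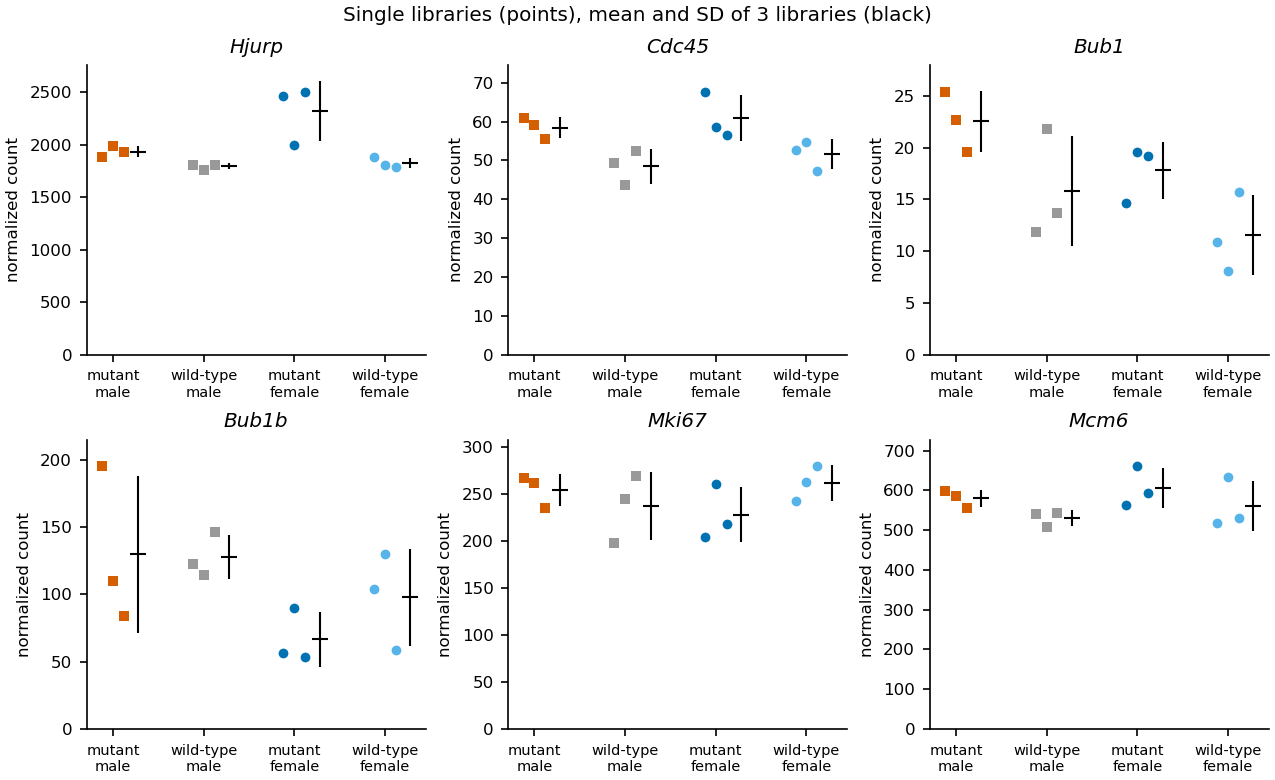
Normalized counts of Hjurp, Cdc45, Bub1, Bub1b, Mki67 and Mcm6 in single libraries (coloured points) of the 4 groups, with mean and SD of 3 libraries in black and each y axis starting at 0. Hjurp in mutant females (1995 to 2508) lies above wild-type females (1789 to 1883), and Bub1b varies widely within groups.

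Within males alone, no member passed at an adjusted p below 0.05 (limma), against 0% of all tested genes, and none had an unadjusted p below 0.05, against 10.3% of all tested genes. DESeq2 gave an adjusted p to 1 member in males and did not call it, against 0.891% of the genes with one. The libraries of mutants lay wholly above those of wild type for 6 members (Cdc45, Mcm3, Mcm6, Hjurp, Plk1 and Birc5), against 8.37% of all tested genes, and wholly below for Aurkb, against 7.68%. Plk1 in males had 49.7, 51.1 and 46.7 normalized counts in mutants and 43.5, 36.05 and 37.9 in wild type (log2 difference 0.32, adjusted p = 0.506, limma). With 3 libraries against 3, the smallest exact permutation p is 0.1, so this test could not pass within a sex. The median log2 difference in males was 0.10 for replication genes, with 8 of 11 above 0, and 0.03 for mitosis genes, with 12 of 23 above 0, against 50.6% of all tested genes. For mitosis genes it ran from -0.02 to 0.08 over fits that left out 1 library. Without the 3 libraries low in choroid plexus markers, the median for replication genes was 0.21.

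In females, again no member passed at an adjusted p below 0.05 (limma), against 0% of all tested genes. At an unadjusted p below 0.05 there were 2 members, Hjurp and Pbk, against 6.9% of all tested genes. Hjurp had a log2 difference of 0.34 (95% interval 0.19 to 0.49, adjusted p = 0.584, limma), and DESeq2 called it at an adjusted p of 0.0149, as 1 of the 5 members it gave one, against 0.113% of the genes with one. Without mutant female 2 the value was 0.45 (adjusted p = 0.00447, limma). Over all fits that left out 1 library the value ran from 0.28 to 0.45 and the adjusted p from 0.00447 to 0.924, and only the fit without mutant female 2 passed. Pbk, a mitotic kinase, had 16.9, 27.1 and 20.4 normalized counts in mutant females and 31.8, 41.3 and 25.7 in wild-type females, which overlapped, with a log2 difference of -0.59 (adjusted p = 0.675, limma).

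Mutant females lay wholly above wild-type females for 5 members (Pcna, Cdc45, Hells, Hjurp and Ube2c), against 5.14% of all tested genes. They lay wholly below for 3 members (Cenpf, Tpx2 and Cdca8), against 5.66%. Cdca8 had 22.6, 41.2 and 43.0 normalized counts in mutant females and 44.5, 47.6 and 51.5 in wild-type females (log2 difference -0.47, adjusted p = 0.775, limma). The median log2 difference in females was 0.02 for replication genes, with 8 of 11 above 0, and -0.08 for mitosis genes, with 7 of 23 above 0, against 50.5% of all tested genes. For mitosis genes it ran from -0.16 to -0.08 over fits that left out 1 library.

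The genotype difference was also compared between the sexes, as males minus females. No member passed at an adjusted p below 0.05 (limma), against 0% of all tested genes, and DESeq2 called none, against 0.0171%. Only Hjurp had an unadjusted p below 0.05, against 7.85% of all tested genes, with a value of -0.23 (95% interval -0.45 to -0.02, adjusted p = 0.619, limma). Pbk had the largest value of the 36 at 0.72 (SE 0.36, adjusted p = 0.668, limma).

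Males and females were compared within each genotype as well. Among mutants no member passed in limma or DESeq2, against 0.0629% of all tested genes in limma and 0.161% in DESeq2, and 3 had an unadjusted p below 0.05, against 7.14%. These were Hjurp (log2 difference -0.26, adjusted p = 0.607), Bub1b (0.90, adjusted p = 0.667) and Nusap1 (0.29, adjusted p = 0.691, limma). Without mutant female 2, Hjurp gave -0.36 with an adjusted p of 0.00371 (limma). Over all fits that left out 1 library it ran from -0.36 to -0.20, with adjusted p from 0.00371 to 0.818, and only that fit passed. Mutant males lay wholly above mutant females for 4 members (Cenpf, Pbk, Bub1 and Cdc20), against 6.86% of all tested genes, and wholly below for Hjurp, against 5.85%. Among wild-type mice no member passed in limma or DESeq2, against 0.0457% of all tested genes in limma and 0.131% in DESeq2. Mcm4 alone had an unadjusted p below 0.05, against 6.43% of all tested genes. It had 310.4, 351 and 323 normalized counts in wild-type males and 271, 292 and 292 in wild-type females (log2 difference 0.20, adjusted p = 0.751, limma). Mcm4 was also the only member whose wild-type males lay wholly above wild-type females, against 5.83% of all tested genes, while Cdk1 and Mcm3 lay wholly below, against 6.45%.

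The members also differed in how far libraries of 1 group spread beyond counting noise. The variance of reads within groups, divided by that expected from counting alone, had a median of 1.01 over the 36 genes (0.801 for replication and 1.23 for mitosis genes), against 2.29 over all tested genes. Over 2 stood 7 of the 36 members, against 9890 of the 17496 tested genes. In falling order they were Bub1b (11.9), Hjurp (8.79), Top2a (6.21), Mcm6 (3.30), Mki67 (2.98), Mcm5 (2.76) and Rrm1 (2.22). Spread grows with level, so each gene was also set against tested genes within 1.25-fold of its mean. Bub1b then stood at percentile 93.1, Top2a at 85.6 and Hjurp at 83.7, while Cdc45, at a ratio of 0.357, stood at percentile 0.686. Mcm6 and Mki67 stood at percentile 68.4, Mcm5 at 64.1 and Rrm1 at 51.0. For genes near a ratio of 1 the libraries of a group differed about as much as read counting alone gives.

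**Figure D5:**
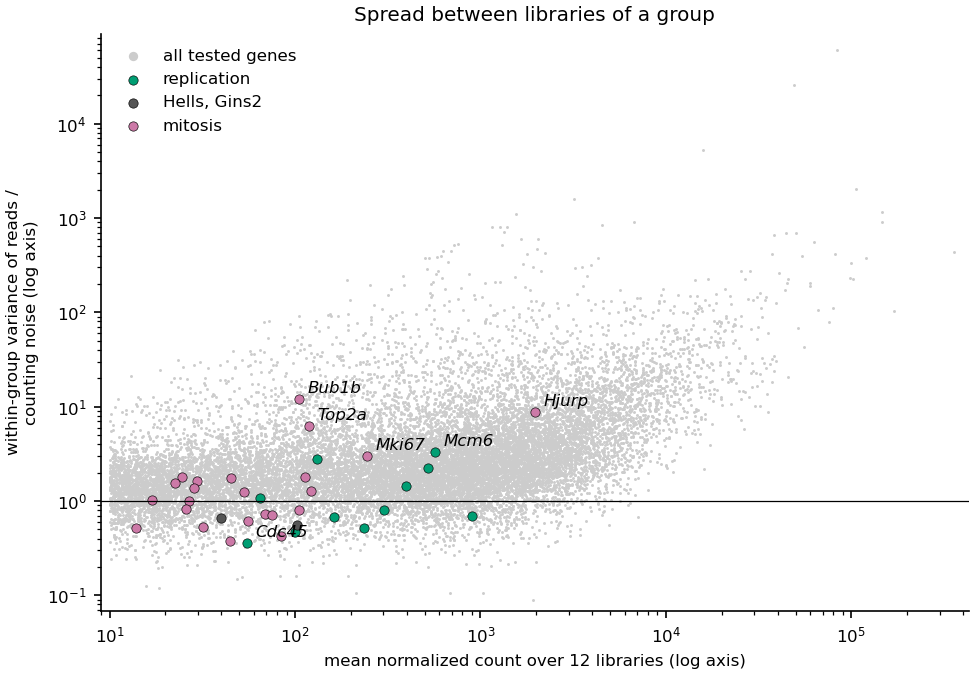
Within-group variance of reads over counting noise (y axis, log) against mean normalized count (x axis, log), with all tested genes in grey and the 36 genes in colour; the line marks a ratio of 1. Bub1b (11.9), Hjurp (8.79) and Top2a (6.21) stand highest among the 36 genes.

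Over the 12 libraries the genes with log2 levels most like those of Mki67 were Ppl (Pearson r 0.90), 1700124L16Rik (0.89), Tspan17 (0.87), Gm17275 (0.85) and Abt1 (0.84). For Mcm2 they were Hhat (0.90), Rbmx2 (0.90), Twist1 (0.89), Trappc1 (0.89) and Fstl4 (0.89). None of these is a member, and Mcm6 came 15th for Mcm2 (0.85) among 17495 genes. The median r with Mki67 was 0.12 over the other mitosis genes (range -0.59 to 0.63) and 0.13 over replication genes (range -0.29 to 0.68). Hjurp had an r of -0.53 with Mki67. With Mcm2 it was 0.32 over the other replication genes and 0.03 over mitosis genes. These are descriptions over libraries that differ in depth and in choroid plexus markers, and weak values at such low counts are no finding.

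Beyond the 36 genes, 172 other genes of the cell cycle were listed in 7 groups, and 165 were tested. In the average of both sexes none passed in limma, and DESeq2 called 1 (Anln), among its 75 calls over all genes. An unadjusted p below 0.05 was found for 12 (7.27%), against 8.87% of all tested genes, with a median log2 difference of 0.01. By group, the medians were 0.02 for 19 genes of origin licensing and firing, 0.03 for 33 genes of the fork and nucleotide supply, and 0.0049 for 30 kinetochore and chromosome genes. They were 0.03 for 29 spindle and cytokinesis genes, 0.02 for 16 cyclins and kinases of entry, 0.0016 for 14 inhibitors and -0.01 for 24 E2F, Rb, MuvB and Foxm1 regulators.

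The genes with the smallest p in each group did not pass in limma. Anln, an actin-binding protein of the cleavage furrow, had 729.5 to 1070.2 normalized counts in mutants and 960.0 to 1286 in wild type (log2 difference -0.31, adjusted p = 0.285, limma). Its mean in wild type was 1144, against 163 for Racgap1 and 37.9 for Nek2, the other genes named from its list. Which cells gave the Anln reads, and whether they divide, was not tested. E2f7, a repressor of the E2F family, had 7.60 to 12.4 in mutants and 11.7 to 18.0 in wild type (-0.59, adjusted p = 0.407, limma), and E2f2 had 39.7 to 49.7 in mutants and 52.1 to 69.2 in wild type (-0.38, adjusted p = 0.360, limma). Ccng1, a target of p53, gave -0.10 (adjusted p = 0.359, limma), Dna2, a nuclease of the lagging strand, 0.33 (adjusted p = 0.426) and Mcm10 -0.31 (adjusted p = 0.579). The other genes named by the same rule ranged from -0.32 for Cdca3 to 0.42 for Ttk.

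Marker lists of cell types that may include dividing cells were read in the same fit. Their genes are not limited to dividing cells, so the lists do not measure division. A sum can also rest on few genes, as Lpar1 alone had a mean of 1756 normalized counts among the stem and progenitor markers. The median log2 difference was 0.05 for 12 neural stem and progenitor markers, with summed levels of 4815 to 5498 normalized counts in mutants and 4852 to 5384 in wild type. It was -0.06 for 12 oligodendrocyte precursor markers, with sums of 24431 to 29309 in mutants and 27180 to 30271 in wild type. In that list 4 of the 12 markers had a log2 difference above 0. Another 5 had an unadjusted p below 0.05 (limma), all of them lower in mutants, against 4.47% of all tested genes that were lower at this threshold. DESeq2 called Olig1 and Sox10 among its 75 genes. The median was 0.02 for 12 microglial and 0.09 for 10 endothelial markers, the last all above 0, and no marker of these lists passed in limma. The part of cell numbers in the members' values was not tested.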

How the data were processed

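Hippocampal RNA was made into 12 libraries with a TruSeq RNA kit (v2), per the labels' protocols. The build GRCm38 and the tools TopHat2 2.1.0, HTSeq, DESeq2 and Trimmomatic 0.35 are listed without roles, per the submitters' processing notes. The annotation release, not given in the sources used here, may differ from the one used below. The deposited signal is a read count divided by 1 size factor per library: every value was a whole multiple of 1 step (0.807 to 1.13 normalized counts per read) within 0.001 reads, in 100% of values. No pair of libraries within a group lay within sampling noise (chi-square per degree of freedom 3.42 to 30.6).

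The design had planned for values of this kind. limma 3.58.1 (R 4.3.3, trend) was fitted to log2(value + 1) of 17496 genes with a mean of at least 10, with 1 mean per group over all 12 libraries and Benjamini-Hochberg adjustment over all tested genes at 0.05. A log2 difference on this scale understates changes of low genes. edgeR 4.0.16 and DESeq2 1.42.0 on recovered reads were alternatives. On those reads edgeR called 1 gene in the average of both sexes and 0 in males and in females. Other alternatives were limma-voom, TMM and upper-quartile factors, pseudocounts 0.5 and 5, no filter and a mean of 50, a replicate block, leaving out each library, and leaving out the 3 libraries low in choroid plexus markers. Exact permutations shuffled genotypes within sex. They were run only for Chd8 and for members with an unadjusted p below 0.05 (limma) in the average, males or females. The exact p-values of members thus follow a choice made on the same values and are no independent support. The fit was tested on simulated data. Replicate numbers gave no sign of pairing the samples.

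Exon lengths and positions are from GENCODE M21 (GRCm38), which gave 45143 of 46078 IDs a symbol. Promoters are from RefSeq (GRCm38.p6). Members and gene lists were chosen with earlier results of these data known. All 36 members are named, with at most 3 genes of each other list by smallest p and 5 genes most like Mki67 and Mcm2.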

Additional observations from a re-analysis of the deposited data

How the results depend on the processing

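No member was called in limma with all libraries, so no call could be lost or reversed. Among 4896 member values over 23 alternatives, 5 became called (all Hjurp) and 254 uncalled values changed sign. Members called stayed at 0 in every alternative except DESeq2, with 1 in the average and 1 in females (Hjurp both times), and leaving out mutant female 2. Leaving out single libraries gave 0 to 1 members in the average, in females and between the sexes of mutants.

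Counts over all tested genes moved more. In the average (1 gene) they were 0 with upper-quartile factors, 0 with no filter, 75 with DESeq2, 82 without the 3 libraries low in choroid plexus markers, and 0 to 8 on leaving out 1 library. For males (0 genes) DESeq2 called 35, the set without those 3 libraries 12, and leaving out 1 library 0 to 1. For females (0 genes) the same settings gave 11, 1 and 0 to 1. For the difference between the sexes (0 genes) they gave 3, 2 and 0 to 1. Between the sexes of mutants (11 genes) DESeq2 called 26 and the set without those 3 libraries 19. Between the sexes of wild type (8 genes) no filter gave 13, DESeq2 23, and leaving out 1 library 8 to 13. Without those 3 libraries 1 mutant male remains, assumed to vary like the other groups. The causes were not tested.

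Median log2 differences of replication genes without the 3 libraries were 0.21 in males, 0.11 for the difference between the sexes (0.056 with upper-quartile factors) and 0.0499 between the sexes of mutants. Those of mitosis genes were 0.17 for the difference between the sexes and 0.16 between the sexes of mutants. Leaving out 1 library gave medians of 0.0382 to 0.143 (males) and 0.0113 to 0.0718 (females) for replication genes. For the difference between the sexes it gave -0.0324 to 0.050002 for replication and -0.0197 to 0.193 for mitosis genes, and between the sexes of mutants 0.0312 to 0.185 for mitosis genes.

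With the replicate number as a block the average had 0 genes and 0 members called. Same-numbered libraries of different groups correlated at -0.58 to 0.29 (median 0.0012, 4 of 18 pairs over 0.1). Libraries of different numbers correlated at -0.39 to 0.59 (median -0.027, 8 of 36 pairs over 0.1). The numbers thus gave no sign of pairing, but differences in choroid plexus between libraries enter these correlations, so pairing is not excluded. Single libraries held as few as 9 reads of Bub1, which limits it to differences far above those of Pcna.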
